A study of Homo sapiens with 6 samples.

Results

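CISH, SOCS1, SOCS2, SOCS3, PIM1, PIM2 and PIM3 are the genes through which STAT5 activity is most often read at the RNA level. They were taken as the rows of the count table that carry these 7 names, out of 35410 genes, and all 7 passed the filter on low counts that left 15465 tested genes. RNA was measured by MACE-Seq, which sequences the 3′ ends of polyadenylated transcripts, in the proB leukemia cell line SEM with the KMT2A::AFF1 fusion. SEM::EGR3 cells carried a doxycycline-inducible EGR3 transgene and SEM::mock cells the empty vector, with 3 biological replicates of each. Both lines received doxycycline at 1 µg/mL, and RNA was taken 48 h later, so that the inducer itself is shared by both groups. The sources used here do not say whether either line is a single clone.

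Cytokine and growth factor receptors activate JAK kinases, which phosphorylate STAT5A and STAT5B, and the phosphorylated proteins enter the nucleus and switch on target genes. CISH and the SOCS proteins are induced in this way and close a negative feedback loop, since they bind phosphorylated receptors or JAK kinases and recruit a ubiquitin ligase through their SOCS box. The PIM genes encode serine/threonine kinases without a regulatory switch of their own, so that their activity follows their amount, and they favour survival and proliferation of lymphoid cells. MACE-Seq measures RNA, and the phosphorylation of STAT5 was not measured in these libraries.

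EGR3 itself had 6 to 10 counts in the libraries labelled SEM::mock and 4952 to 9768 in SEM::EGR3 (637 ± 27.1 CPM, SD, n = 3), where CPM are the counts scaled to a common library size with TMM factors. Library totals lay between 5286115 and 6181388 counts in SEM::mock and between 7293092 and 15106018 in SEM::EGR3. Of 14 B-lineage and proB markers, 10 had at most 3 counts in each library labelled SEM::mock, and EBF1, IGHM, DNTT, RAG2 and BLNK had 0 counts in all 3 of them. The summed level of the 14 markers was 134 to 158 CPM in SEM::mock and 678 to 710 CPM in SEM::EGR3, where 3 of them also had no more than 3 counts per library. Of the 10 tested markers, 9 were higher in SEM::EGR3, and 1 was lower, CD24, which went from 144 to 23.5 CPM and made up most of the SEM::mock sum. All 9 of the listed KMT2A fusion targets were higher in SEM::EGR3, with sums of 182 to 199 CPM against 1277 to 1389 CPM. Erythroid markers summed to 5050 to 5408 CPM in SEM::mock and 6249 to 6491 CPM in SEM::EGR3, with 3 of 12 tested genes higher and 9 lower. The sums of the 3 lists that follow held genes that changed in opposite directions. Myeloid markers summed to 237 to 246 CPM against 194 to 202 CPM, with 1 of 4 tested genes higher (CEBPA, 12.4 to 127 CPM) and 2 lower (LYZ, 155 to 42.7 CPM, and SPI1). T cell markers summed to 87.1 to 99.4 CPM against 82.0 to 90.3 CPM, with 2 of 5 tested genes higher (among them TRAC, 1.21 to 74.7 CPM) and 3 lower (among them CD3D, 58.1 to 6.26 CPM, and TRBC1, 31.9 to 1.70 CPM). Fibroblast and epithelial markers summed to 186 to 204 CPM against 123 to 134 CPM, with 2 of 4 tested genes higher (among them COL1A1, 3.62 to 43.2 CPM) and 2 lower (among them KRT19, 140.4 to 46.5 CPM). Megakaryocyte markers summed to 9.02 to 11.2 CPM against 17.2 to 18.3 CPM, with both tested genes higher. The libraries labelled SEM::mock therefore lacked most defining markers of their labelled cell type, and as this holds for all 3 of them, no comparison without them could be made. The SEM::EGR3 libraries also held RNA from outside this cell type, with means of 2117 CPM for HBZ, 1497 CPM for HBA1 and 949 CPM for HBG2. In each comparison below, EGR3 expression and any other difference between both lines cannot be told apart, and the part of the marker differences in the results was not tested. Nor can fewer cells with a transcript be told apart from less RNA per cell in bulk libraries.

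STAT5 binds DNA as a dimer at the palindrome TTCNNNGAA, and the CISH promoter is the classical example, so the promoter sequences are shown first. Windows of 300 bases, from 250 before to 50 after the transcription start, came from the RefSeq table of the human genome (GRCh38.p14). It held windows for 6 of the 7 genes, with 2 windows for SOCS3. SOCS2 had no window, so its promoter was not searched. TTCNNNGAA occurred in 2689 of 35116 such windows (7.66%), and 7 windows (0.0199%) held at least 4 matches, CISH among them. The 4 matches in CISH lay at -241, -230, -129 and -112 from the start. None of the other windows of these genes held these letters. The 2 SOCS3 windows, 78359618 to 78359917 and 78360876 to 78361175, do not cover the start of the GENCODE gene model at 78360077. The bases just before that start were therefore not searched. The following CISH sequences carry the 4 matches in capitals and are written 5′ to 3′ on the minus strand, on which CISH is transcribed.
CISH, chr3:50611832-50611907, minus strand: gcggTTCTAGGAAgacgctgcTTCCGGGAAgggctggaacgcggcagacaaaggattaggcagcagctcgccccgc
CISH, chr3:50611991-50612020, minus strand: ccgttTTCCTGGAAagTTCTTGGAAatctg
The second stretch overlaps an annotated 5′ UTR of MAPKAPK3, the neighbouring gene on the opposite strand.

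The stretches before SOCS1, PIM1 and PIM2 are shown as promoters of the same pathway without TTCNNNGAA. Capitals mark GGGCGGG on either strand, the core letters bound by SP family factors, which 11618 of the 35116 windows (33.1%) contained.
SOCS1, chr16:11256205-11256454, minus strand: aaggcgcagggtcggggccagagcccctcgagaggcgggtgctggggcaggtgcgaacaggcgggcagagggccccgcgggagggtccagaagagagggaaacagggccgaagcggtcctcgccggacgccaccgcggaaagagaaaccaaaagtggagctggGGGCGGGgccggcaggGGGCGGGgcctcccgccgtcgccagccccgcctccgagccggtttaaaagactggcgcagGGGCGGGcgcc
PIM1, chr6:37169902-37170151, plus strand: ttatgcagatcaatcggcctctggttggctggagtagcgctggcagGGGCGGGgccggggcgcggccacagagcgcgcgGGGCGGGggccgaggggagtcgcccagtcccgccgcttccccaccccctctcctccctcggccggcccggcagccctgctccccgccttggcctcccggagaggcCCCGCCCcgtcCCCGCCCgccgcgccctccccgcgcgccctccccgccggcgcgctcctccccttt
PIM2, chrX:48919025-48919274, minus strand: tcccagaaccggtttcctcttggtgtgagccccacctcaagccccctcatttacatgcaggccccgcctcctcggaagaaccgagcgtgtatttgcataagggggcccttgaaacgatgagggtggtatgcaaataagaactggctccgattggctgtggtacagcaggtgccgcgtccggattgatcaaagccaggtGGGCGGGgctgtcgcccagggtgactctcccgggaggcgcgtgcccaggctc
SOCS1 held 3 such matches, PIM1 4, PIM2 1, PIM3 4 and CISH 3 over the full windows. The letters GCGTGGGCG or GCGGGGGCG, which EGR family zinc fingers recognise, occurred on either strand in 2026 windows (5.77%). Among the genes described here, PIM3 had 1 match, at -61 from the RefSeq start and inside the first exon of the longer GENCODE gene model.
PIM3, chr22:49960701-49960729, plus strand: cgattcgcccCGCCCCCGCggagggatac
The capitals mark the match, which reads GCGGGGGCG on the opposite strand and overlaps 1 of the 4 GGGCGGG matches of PIM3. These matches describe letters in a window, and binding was not measured here.

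Of the 7 genes, 1 was upregulated in SEM::EGR3 (PIM3), 5 were downregulated (SOCS1, SOCS2, SOCS3, PIM1 and PIM2), and CISH did not pass the test. Changes were tested with edgeR's quasi-likelihood test, and a gene was called where its p-value, adjusted over the whole table by the method of Benjamini and Hochberg, was under 0.05. By this criterion 68.5% of all tested genes were called, 36.5% as higher and 32.0% as lower, so that a call alone sets no gene apart in this comparison. The median log2 fold change of the 7 genes was -0.81, beside 0.03 over all tested genes. In each of the 7 genes the 3 SEM::EGR3 libraries did not overlap the 3 libraries labelled SEM::mock, as was the case for 70.1% of all tested genes (37.5% with SEM::EGR3 higher, 32.6% lower).

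**Figure D1:**
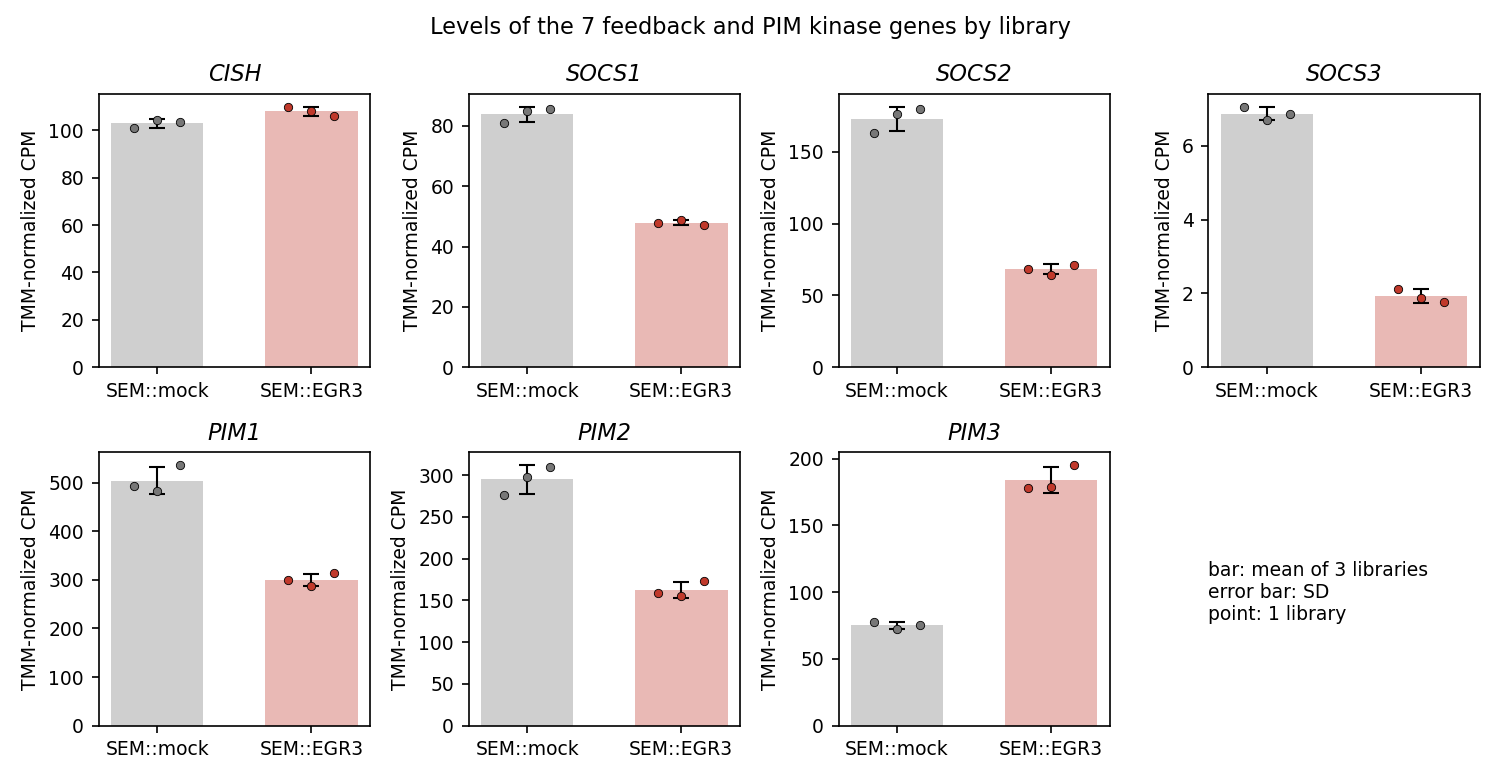
TMM-normalized CPM of CISH, SOCS1, SOCS2, SOCS3, PIM1, PIM2 and PIM3 (y axes start at 0) in SEM::mock (grey) and SEM::EGR3 (red), where points are libraries, bars means and error bars SD. SOCS1, SOCS2, SOCS3, PIM1 and PIM2 sat lower in all 3 SEM::EGR3 libraries, PIM3 higher, and CISH differed little (103 against 108 CPM).

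CISH (ENSG00000114737, chromosome 3, 50606490 to 50611831, minus strand, GRCh38) encodes a feedback inhibitor that binds activated cytokine receptors such as the erythropoietin receptor and blocks docking of STAT5. Its level was 100.9, 104.5 and 103.3 CPM in SEM::mock replicates 1 to 3 and 110.0, 108.2 and 106.2 CPM in SEM::EGR3 replicates 1 to 3. All SEM::EGR3 libraries lay above all libraries labelled SEM::mock, but by a narrow margin. The means were 103 ± 1.85 and 108 ± 1.91 CPM (SD, n = 3), a difference of 0.07 on the log2 scale (standard error 0.06, adjusted p = 0.273, edgeR). The 95% confidence interval of the fold ran from 0.968 to 1.14, so that a difference beyond this range was not seen, while a smaller change in either direction is compatible with the data. Without normalization factors the log2 fold change was 0.15 and passed the threshold (adjusted p = 0.0256, edgeR). The 5′ end of CISH overlaps MAPKAPK3 by 312 bases on the opposite strand. Whether reads were counted by strand is not given in the sources used here.

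SOCS1 (ENSG00000185338, chromosome 16, 11254405 to 11256200, minus strand) encodes the SOCS protein that inhibits JAK kinases directly through its kinase inhibitory region. It was measured at 80.9, 84.9 and 85.7 CPM in SEM::mock and at 47.7, 48.8 and 47.1 CPM in SEM::EGR3. The groups were far apart, and within each line the replicates lay close together. With means of 83.9 ± 2.56 and 47.8 ± 0.853 CPM (SD, n = 3), SOCS1 fell 1.75-fold (log2 fold change -0.81, standard error 0.07, adjusted p = 5.61e-11, edgeR). SOCS1 lies wholly within RMI2, a gene of genome maintenance on the opposite strand, over 1796 bases. RMI2 fell less, from 89.9 to 68.2 CPM (log2 fold change -0.40, standard error 0.07). Without strand in counting, reads of SOCS1 and RMI2 could not be separated.

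SOCS2 (ENSG00000120833, chromosome 12, 93569814 to 93583487, plus strand) encodes the main brake on growth hormone signaling and is, like CISH, a direct STAT5 target. Its level was 163, 176 and 179 CPM in SEM::mock and 68.6, 64.4 and 71.4 CPM in SEM::EGR3. The lowest library labelled SEM::mock was thus well above the highest SEM::EGR3 library. The means were 173 ± 8.52 and 68.1 ± 3.53 CPM (SD, n = 3), a 2.53-fold decrease (log2 fold change -1.34, standard error 0.06, adjusted p = 8.88e-16, edgeR). Only 5.02% of all tested genes had a lower log2 fold change. The antisense transcript SOCS2-AS1, which overlaps the start of SOCS2 by 1955 bases, also fell, from 12.5 to 6.09 CPM (log2 fold change -1.03, standard error 0.17), and without strand its reads and those of SOCS2 could not be told apart where both overlap.

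SOCS3 (ENSG00000184557, chromosome 17, 78356778 to 78360077, minus strand) encodes the feedback inhibitor of receptors that signal through gp130, the product of IL6ST, and is induced by STAT3 as well as STAT5. It had few reads, namely 40, 40 and 35 in the libraries labelled SEM::mock and 33, 14 and 16 in SEM::EGR3. Scaled to depth these were 7.07, 6.70 and 6.86 CPM against 2.13, 1.89 and 1.77 CPM. The counts of SEM::EGR3 replicate 1 came close to those of SEM::mock because this library was the deepest, and on the CPM scale the groups were apart. SOCS3 showed the steepest decrease of the 7 genes, 3.48-fold (log2 fold change -1.80, 95% confidence interval -2.24 to -1.35, adjusted p = 7.06e-08, edgeR), and the largest standard error (0.22). A lower log2 fold change was found for 2.17% of all tested genes.

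PIM1 (ENSG00000137193, chromosome 6, 37170203 to 37175426, plus strand), the founding member of the kinase family, was found as a common integration site of Moloney murine leukemia virus in mouse lymphomas. Its level was 493, 484 and 536 CPM in SEM::mock and 299.8, 287 and 313 CPM in SEM::EGR3. Both groups were clearly separate. The mean fell from 504 ± 28.0 to 300.0 ± 13.0 CPM (SD, n = 3), which was 1.68-fold (log2 fold change -0.75, standard error 0.05, adjusted p = 8.86e-12, edgeR).

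PIM2 (ENSG00000102096, chromosome X, 48913182 to 48919024, minus strand) encodes the PIM kinase known for its role in the growth of B cell and plasma cell malignancies. It was measured at 277, 298 and 310.2 CPM in SEM::mock and at 159, 155 and 173 CPM in SEM::EGR3. The groups did not overlap, and PIM2 fell by nearly the same factor as PIM1. With means of 295 ± 17.1 and 162 ± 9.21 CPM (SD, n = 3), the decrease was 1.82-fold (log2 fold change -0.86, standard error 0.06, adjusted p = 2.15e-12, edgeR).

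PIM3 (ENSG00000198355, chromosome 22, 49960513 to 49964080, plus strand) encodes the third kinase, which phosphorylates largely the same substrates. It went the other way, from 77.8, 72.0 and 75.5 CPM in SEM::mock to 178, 179 and 195 CPM in SEM::EGR3. Every SEM::EGR3 library was far above every library labelled SEM::mock. The means were 75.1 ± 2.89 and 184 ± 9.59 CPM (SD, n = 3), a 2.45-fold increase (95% confidence interval 2.24 to 2.68, log2 fold change 1.29, adjusted p = 2.18e-15, edgeR). Of all tested genes, 86.8% had a lower log2 fold change.

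As PIM3 rose while PIM1 and PIM2 fell, the composition of the PIM reads shifted. PIM3 made up 8.60% ± 0.515 of the reads of the 3 PIM genes in SEM::mock and 28.5% ± 0.422 in SEM::EGR3 (SD, n = 3), with 8.19% to 9.18% in the libraries labelled SEM::mock and 28.0% to 28.8% in SEM::EGR3. PIM1 went from 57.7% ± 0.876 to 46.4% ± 0.589 and PIM2 from 33.7% ± 1.14 to 25.1% ± 0.238. The sum over the 3 PIM genes was nevertheless lower in SEM::EGR3, 646 ± 31.0 CPM against 874 ± 41.3 CPM. These are shares of 3′ end reads without a correction for length, so each gene is compared with itself between lines.

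Among CISH, SOCS1, SOCS2 and SOCS3, the feedback inhibitor with most reads was SOCS2 in SEM::mock (47.2% ± 0.732 of their reads) and CISH in SEM::EGR3 (47.8% ± 0.829). The share of SOCS2 in SEM::EGR3 was 30.1% ± 1.34, and that of CISH in SEM::mock 28.1% ± 0.558. SOCS1 differed little in share, with 22.9% ± 0.0903 and 21.2% ± 0.590, and SOCS3 went from 1.88% ± 0.112 to 0.852% ± 0.0757. The summed level of the 4 genes was 367 ± 12.6 CPM in SEM::mock and 226 ± 2.65 CPM in SEM::EGR3.

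**Figure D2:**
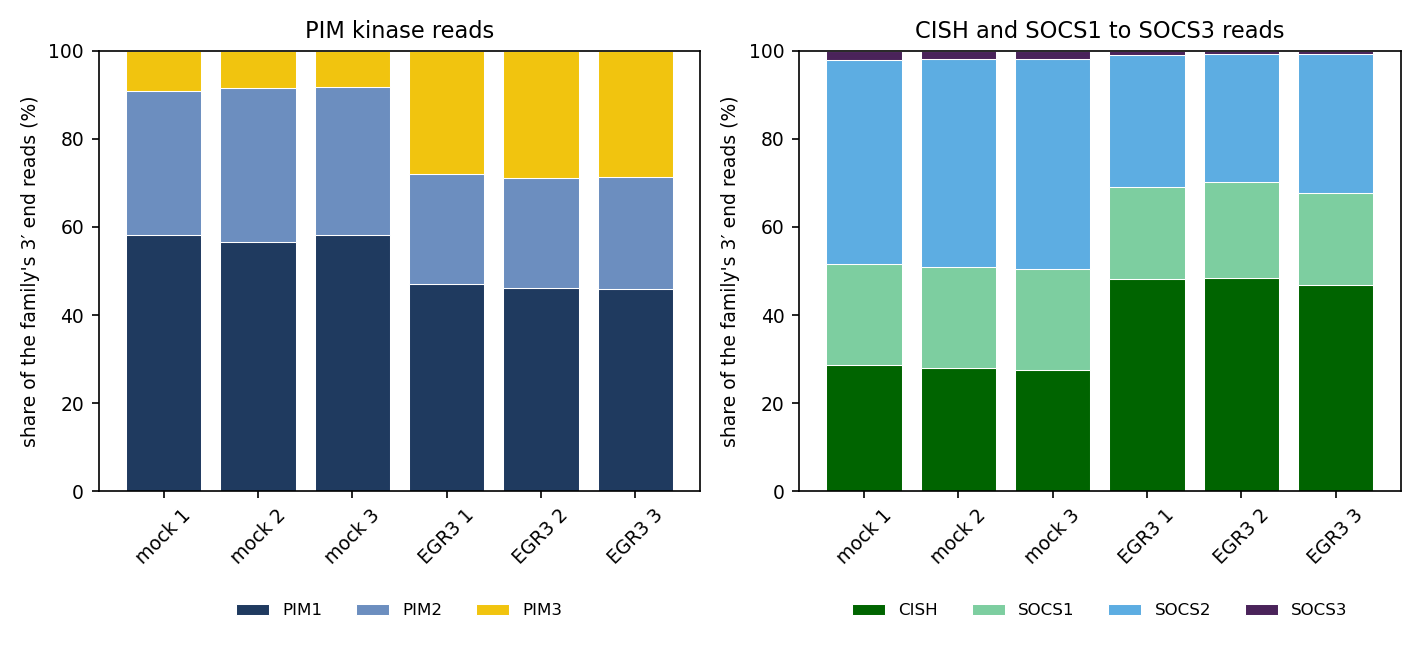
Share in percent of the 3′ end reads of PIM1, PIM2 and PIM3 (left) and of CISH, SOCS1, SOCS2 and SOCS3 (right) in each of the 6 libraries, as stacked bars. PIM3 grew from 8.60% to 28.5% and CISH from 28.1% to 47.8% on average, and the replicates of a line looked alike.

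The log2 ratio of counts of 2 genes within a library needs no normalization, and 5 pairs were compared in this way. PIM1 over PIM2 was 0.77 ± 0.0690 in SEM::mock and 0.89 ± 0.0304 in SEM::EGR3 (SD, n = 3), a difference of 0.11. In contrast, PIM1 over PIM3 went from 2.75 to 0.70 and PIM2 over PIM3 from 1.97 to -0.18, differences of -2.04 and -2.15. CISH over SOCS2 turned from -0.75 ± 0.0509 to 0.67 ± 0.0884 (difference 1.41), and SOCS1 over SOCS3 moved from 3.59 to 4.60 (difference 1.01). In each of the 5 pairs the lines did not overlap, and the two-sided exact permutation test gave p = 0.1 (adjusted p = 0.1 over 5 pairs), the smallest value that 3 libraries against 3 can give. The pair PIM1 and PIM2 thus kept nearly the same ratio in both lines, while PIM3 departed from both.

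The other members of the SOCS family, which are less tied to STAT5, differed little between the lines. Of SOCS4, SOCS5, SOCS6 and SOCS7, all tested, 1 was called higher and 3 were not called (edgeR), with a median log2 fold change of 0.15. SOCS4 was the called gene (25.5 against 30.3 CPM, log2 fold change 0.26, standard error 0.10, adjusted p = 0.0172, edgeR). Its call was lost without SEM::mock replicate 2 (adjusted p = 0.141), without SEM::EGR3 replicate 1 (adjusted p = 0.0964) and with DESeq2 (adjusted p = 0.0765).

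Upstream, RNA of both STAT5 genes was lower in SEM::EGR3. The counts of STAT5A were 1031, 1040 and 880 in SEM::mock and 793, 443 and 490 in the deeper SEM::EGR3 libraries, and its level fell from 176 ± 5.15 to 55.0 ± 4.32 CPM (SD, n = 3, log2 fold change -1.69, standard error 0.06, adjusted p = 1.93e-17, edgeR). STAT5B went from 73.5 ± 1.21 to 35.2 ± 2.07 CPM (log2 fold change -1.05, standard error 0.07, adjusted p = 2.16e-12). The lines did not overlap for either gene. Of 6 tested STAT genes, 3 were lower and 1 higher, with a median of -0.42. STAT3, which also drives SOCS3, fell from 94.9 to 60.1 CPM (log2 fold change -0.66, standard error 0.07), whereas STAT6, the factor of interleukin-4 signaling, rose from 59.5 to 192 CPM (log2 fold change 1.69, standard error 0.07).

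Of the 4 JAK kinases, JAK1 and JAK2 were lower, JAK3 higher and TYK2 not called, with a median of -0.08. JAK2, which serves the erythropoietin and growth hormone receptors and is a target of SOCS1 and SOCS3, went from 13.6 to 7.52 CPM (log2 fold change -0.87, standard error 0.17, adjusted p = 5.77e-05, edgeR). JAK1 fell by 0.27 on the log2 scale. JAK3, the partner of the common γ chain of interleukin receptors, had 0 counts in each library labelled SEM::mock, while the SEM::EGR3 libraries had 240, 162 and 181. Set against 3 counts per library (0.540 CPM), it was at least 35.4-fold higher.

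Of 26 receptors that signal through JAK and STAT, 19 were tested, 7 were higher and 9 lower, and the median log2 fold change was -0.26. FLT3, the receptor tyrosine kinase typical of KMT2A-rearranged leukemia and a member of the KMT2A target list above, was represented by 1, 0 and 4 reads in the libraries labelled SEM::mock and by 4998, 2285 and 2961 in SEM::EGR3. IL2RG, the common γ chain itself, rose from 12.9 to 51.2 CPM (log2 fold change 2.00, standard error 0.11). IL7R, the receptor chain through which interleukin-7 activates STAT5 in precursor B cells, was nearly absent from SEM::mock (1, 0 and 0 counts), while 64, 21 and 24 reads were counted in SEM::EGR3, an increase of at least 5.93-fold, and CRLF2, the receptor for TSLP, had at most 1 count in any library. The receptors that fell most were IL4R (log2 fold change -1.91), KIT (-1.25) and IL6ST (-1.03). EPOR, a receptor bound by CISH and also an erythroid marker above, went from 14.9 to 8.77 CPM (log2 fold change -0.76, standard error 0.14).

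**Figure D3:**
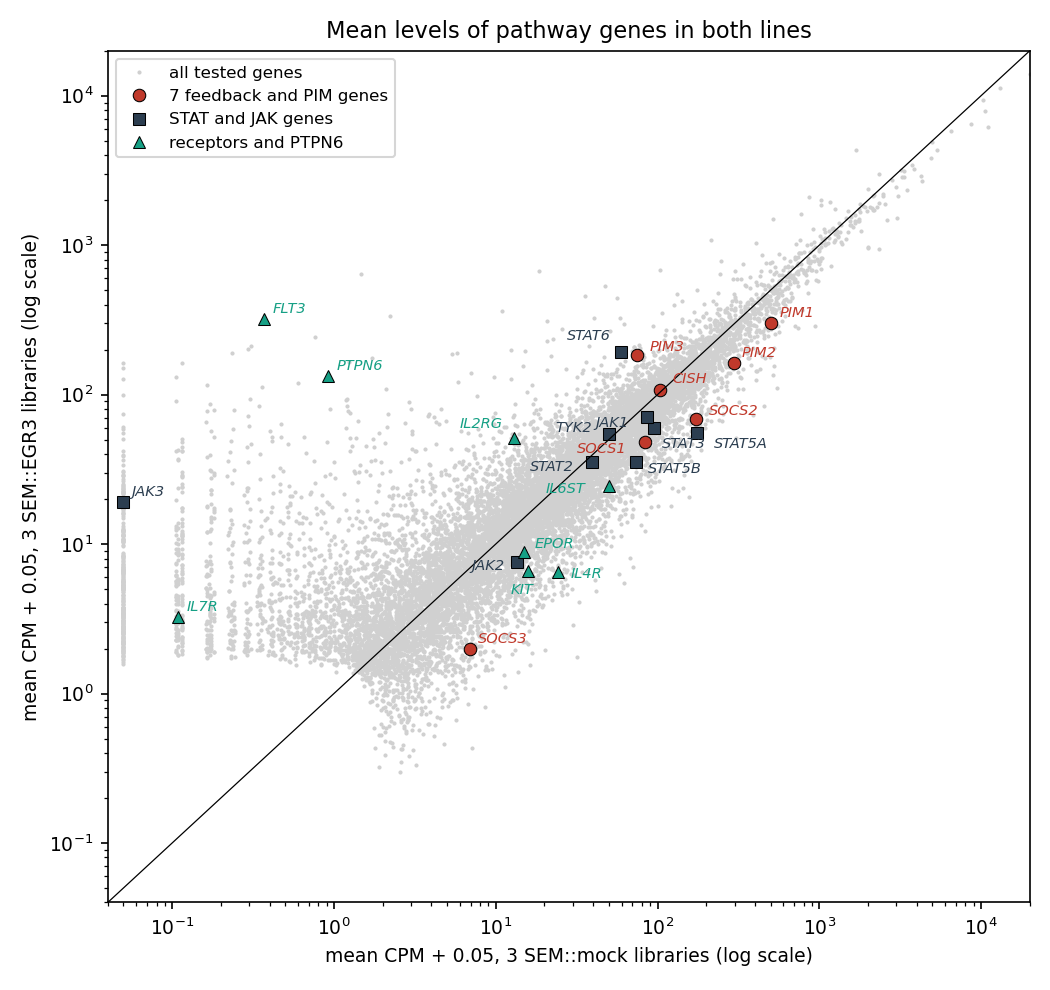
Mean CPM of each tested gene in SEM::mock (x axis) and SEM::EGR3 (y axis), both on log scales after adding 0.05 CPM, with the line of equal levels. STAT5A (176 against 55.0 CPM) and SOCS2 (173 against 68.1 CPM) lie below the line, CISH next to it and PIM3, STAT6, FLT3, PTPN6 and JAK3 above it.

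Other brakes on the pathway and the ligase that SOCS proteins recruit were taken next. Of 14 phosphatases, adaptors and PIAS or CBL proteins, all tested, 6 were higher and 4 lower (median 0.03). PTPN6 encodes SHP-1, a phosphatase that removes phosphate from JAK kinases and receptors, and its counts were 7, 7 and 1 in the libraries labelled SEM::mock and 2038, 1009 and 1187 in SEM::EGR3. PTPN2, which dephosphorylates JAK1, JAK3 and STAT5, rose from 26.0 to 46.9 CPM (log2 fold change 0.85, standard error 0.08), whereas PTPN1, which acts on JAK2 and TYK2, fell from 79.7 to 53.0 CPM (log2 fold change -0.59, standard error 0.07). Of 6 subunits of the SOCS box ligases, ELOB was higher (log2 fold change 0.54), ELOC (-0.28) and RNF7 (-0.51) were lower, and CUL5, CUL2 and RBX1 were not called.

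Genes other than these 7 that are known as STAT5 targets showed no common direction. Of 18 such genes, 13 were tested, 7 were higher and 6 lower, with a median of 0.41. BCL2, the survival factor, rose from 13.1 to 86.6 CPM (log2 fold change 2.72, standard error 0.09) and GFI1, a transcriptional repressor, from 6.16 to 34.2 CPM (2.46, standard error 0.14). CDK6, a cell cycle kinase that is also in the KMT2A target list, rose from 141 to 320 CPM (1.18, standard error 0.06). BCL2L1, which encodes BCL-XL and follows STAT5 in many cells, went from 269 to 359 CPM (0.41, standard error 0.05). On the other side, CCND1, a D-type cyclin, fell from 127 to 31.1 CPM (log2 fold change -2.03, standard error 0.07), MYC from 172 to 99.3 CPM (-0.79, standard error 0.06) and MCL1 from 228 to 147 CPM (-0.63, standard error 0.05). BCL6, which STAT5 is known to repress in B cells, rose from 1.42 to 5.97 CPM (2.05, standard error 0.27). It is counted among the 7 higher genes, so the counts and the median mix induced and repressed targets.

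**Figure D4:**
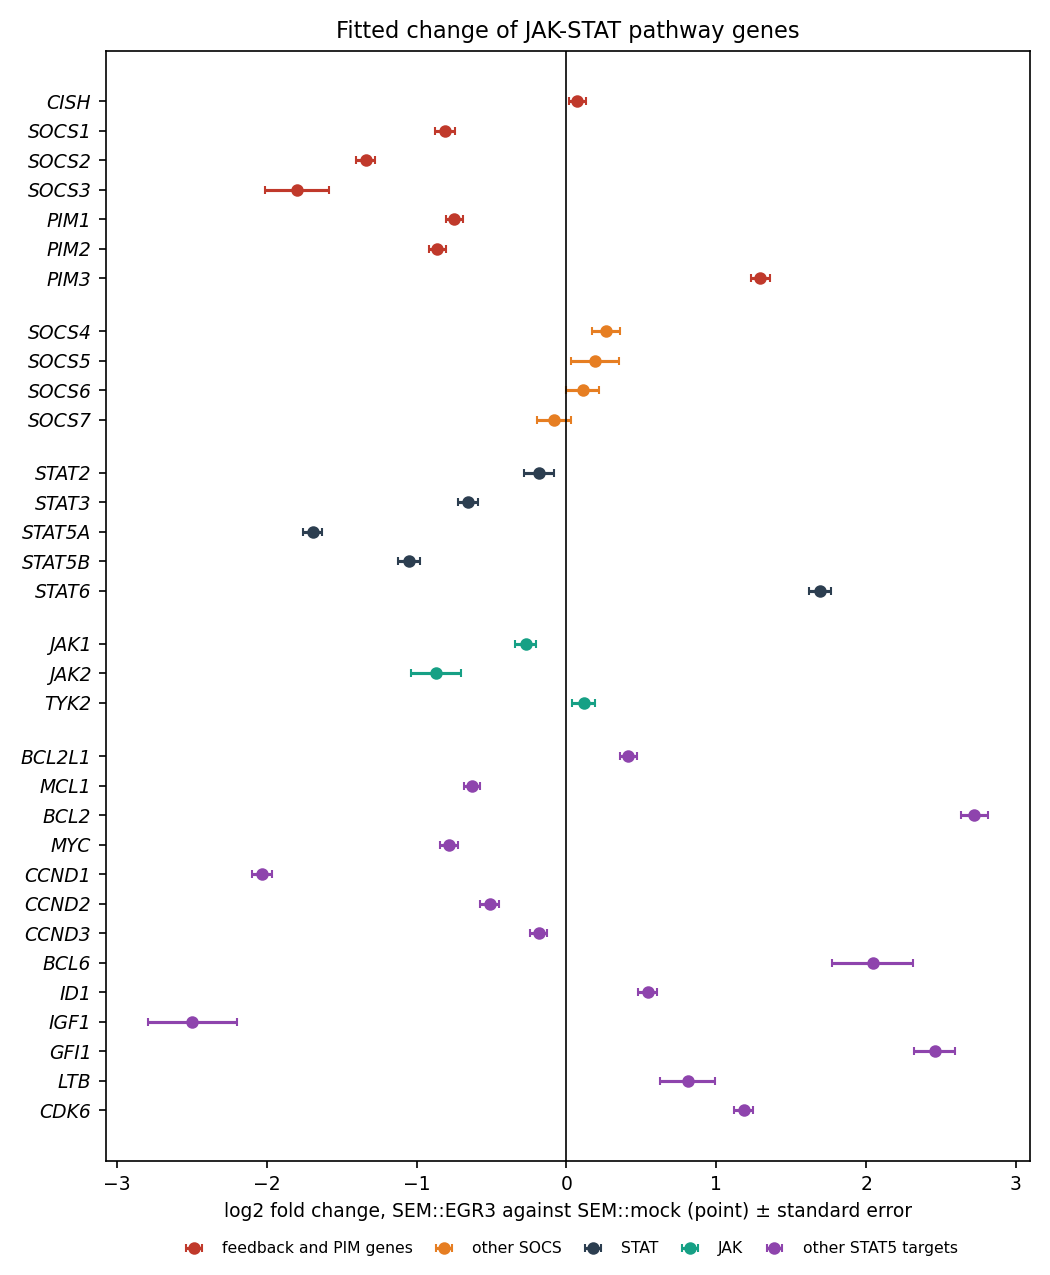
Fitted log2 fold change (point) with its standard error (bar) for the 7 genes and for SOCS, STAT, JAK and other STAT5 target genes, leaving out JAK3, which had no counts in SEM::mock. The 7 genes run from -1.80 (SOCS3) to 1.29 (PIM3), and STAT5A (-1.69) and STAT5B (-1.05) lie on the lower side.

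Of 13 known PIM substrates, all tested, 6 were higher, 4 lower and 3 not called (median 0.18). The cell cycle inhibitors CDKN1B (41.4 to 62.0 CPM, log2 fold change 0.58, standard error 0.08) and CDKN1A (64.3 to 94.9 CPM, 0.56, standard error 0.07) rose. CXCR4, the chemokine receptor whose surface level depends on PIM1, had 0 counts in each library labelled SEM::mock, while the SEM::EGR3 libraries had 415, 189 and 265, an increase of at least 50.3-fold. CBX3 (log2 fold change -0.38) and AKT1S1 (-0.34) fell, and MYC is given above. Kinases outside the JAK family listed as acting on STAT5 were mostly lower, with 2 higher and 7 lower of 9 tested (median -0.63). The 7 lower genes included BCR (log2 fold change -0.63), which does not encode a tyrosine kinase. Of these, LYN fell from 100.5 to 37.6 CPM (log2 fold change -1.41, standard error 0.07), BTK from 107 to 61.7 CPM (-0.80, standard error 0.08) and ABL1 from 205 to 136 CPM (-0.59, standard error 0.07). PDGFRB, a receptor kinase, had at most 1 count per library in SEM::mock and rose at least 166-fold, and FES rose from 0.658 to 10.8 CPM. In the JAK, receptor, substrate and kinase lists, the genes at the detection limit lie above the median even at their lower bounds. Setting them to these bounds therefore could not change the medians.

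The nearest tested genes on each side were read to place the 7 genes in their surroundings. Next to PIM3, ALG12 (log2 fold change 0.91, standard error 0.13), CRELD2 (1.35, standard error 0.10) and MLC1 (2.56, standard error 0.14) were also higher, while PANX2, 206.7 kb away, was lower (-1.65, standard error 0.21). Around PIM2 the order was the opposite, as SLC35A2 (0.34), OTUD5 (0.40) and KCND1 (1.33) were higher next to a gene that fell, and PQBP1 fell slightly (-0.18). On the sides of SOCS1, LITAF, 291.5 kb away, fell by 1.30 on the log2 scale. The nearer CLEC16A (72.2 kb, 0.07) and AC009121.2 (85.6 kb, 0.62) were not called. Around SOCS3, AFMID (149.1 kb away) fell by 0.85 and DNAH17-AS1 (124.8 kb away) by 3.01, the latter from 2.88 to 0.329 CPM. PGS1, 18.6 kb from SOCS3 (-0.07), and BIRC5, 131.1 kb away (0.08), were not called. On the sides of SOCS2, SOCS2-AS1 fell by 1.03 and CRADD, 93.9 kb away, by 0.55, while PLXNC1, 565 kb away, rose by 3.04. MRPL42, 53.6 kb from SOCS2, was not called (-0.11). The neighbours of CISH included MAPKAPK3, which fell by 0.51, and HEMK1, which rose by 0.22, and those of PIM1 included TMEM217 (0.53) and TBC1D22B (-0.26).

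Over the 6 libraries, the genes whose centred log2 CPM profile lay nearest to that of PIM3 by Euclidean distance were EXOC3-AS1 (0.0921), ABHD3 (0.0925), CYB5A (0.118), CIC (0.121) and PDHB (0.140). Nearest to SOCS3 were CFLAR (0.135), FLNC (0.151), PPOX (0.152), TMEM150A (0.155) and HOXB2 (0.165). These distances describe 6 libraries in 2 groups and mostly reflect a like difference between the lines.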

How the data were processed

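MACE-Seq libraries of 3 biological replicates each of SEM::mock and SEM::EGR3 were compared, as grouped by the sample labels. The column headings spell EGR3 as ERG3 and were matched through the titles. The table that the authors deposited holds raw counts for every gene and library, and these were used here. Beside them, the authors deposited CPM values named TPM, a size-factor normalized signal, and log2 fold changes and p-values of their own DESeq2 comparison, none of which was used. The submitters' processing notes name GRCh38, bcl2fastq, Bowtie2 and HTSeq, while versions and the strand setting are not given in the sources used here. Detection limits cover counting error only, since several reads can stem from 1 molecule. Every column of raw counts was used. Not every listed gene is reported singly here.

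Counts were filtered with filterByExpr, scaled by TMM and tested with glmQLFit and glmQLFTest (edgeR 4.0.16, R 4.3.3) over all 6 libraries, with Benjamini-Hochberg adjustment over 15465 genes. Levels are TMM-normalized CPM of the counts in the table. On simulated data of 15049 genes, 87 of 88 genes changed by 1 on the log2 scale and 112 of 112 changed by 2 were recovered, with 14 false calls. Far fewer genes were changed there than were called in the real data, and none at low levels. The simulation therefore does not test the scaling under so broad a difference, nor low genes such as SOCS3. Genes at 3 counts or fewer in each SEM::mock library are given as lower bounds against that limit. Positions come from GENCODE release 29 (34339 of 35410 identifiers, 97.0%) and promoters from RefSeq.

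The 7 genes and the gene lists were chosen with earlier results of these data known. From each list, up to 3 genes with the largest rise and up to 3 with the largest fall were eligible to be named, if called and with 100 or more counts on average in the line with more, besides genes a sentence on the 7 genes turned on. JAK2, EPOR, KIT, IL7R, CRLF2, BCL2L1, BCL6, ABL1 and single marker genes were named after their values were seen. Neighbours are the 2 nearest tested genes on each side. The alternatives were DESeq2 1.42.0, no normalization factors, upper-quartile or median-of-ratios factors, no filter, a minimum of 10 counts per library, a block for the replicate number, leaving out each library, a minimum change of 1 on the log2 scale, and for pairs 5 counts added in place of 0.5 or log2 CPM with a prior count of 2. Replicates of a line differed by more than counting noise (chi-square per degree of freedom 1.71 to 3.32).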

Additional observations from a re-analysis of the deposited data

How the results depend on the processing

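SOCS1, SOCS2, SOCS3, PIM1, PIM2 and PIM3 kept their direction and their call under all 13 alternatives run for them, and CISH kept its direction. Without normalization factors CISH passed the threshold (log2 fold change 0.15, adjusted p = 0.0256, edgeR), so that 2 of the 7 genes were higher, and over all settings its adjusted p ranged from 0.0256 to 0.598. With a minimum change of 1 on the log2 scale, 3896 genes were called, 2581 higher and 1315 lower, against 10594, 5640 and 4954. This minimum was applied to the counts over all genes and is not among the 13 alternatives. SOCS1 (-0.81), PIM1 (-0.75), PIM2 (-0.86) and CISH (0.07) had fitted log2 fold changes too small to meet it. With each library left out in turn, the number of called genes ranged from 9938 to 10499 (5312 to 5570 higher, 4626 to 4940 lower), with 1 of the 7 genes higher and 5 lower each time. The log2 fold changes then ranged from 0.04 to 0.09 for CISH, -0.85 to -0.80 for SOCS1, -1.40 to -1.30 for SOCS2, -1.90 to -1.74 for SOCS3, -0.79 to -0.72 for PIM1, -0.92 to -0.83 for PIM2 and 1.25 to 1.32 for PIM3. The differences in log2 ratio ranged from 0.08 to 0.14 (PIM1 over PIM2), -2.08 to -2.00 (PIM1 over PIM3), -2.23 to -2.12 (PIM2 over PIM3), 1.37 to 1.46 (CISH over SOCS2) and 0.96 to 1.08 (SOCS1 over SOCS3). Without SEM::mock replicate 2, 2 JAK kinases were called higher in place of 1. With at least 10 counts in every library, genes near 0 in SEM::mock drop out by construction, which left 2 receptors and no JAK kinase or other tyrosine kinase called higher.

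Deviations from the line means of samples with the same replicate number correlated at -0.12, -0.08 and -0.04, so the numbers are not taken to pair the samples. With the number as a block, 10081 genes were called (5388 higher, 4693 lower), CISH had a log2 fold change of 0.07 (adjusted p = 0.367, edgeR), PIM3 1.29 and SOCS3 -1.82, and no call among the 7 genes changed. Depth limits SOCS3 most, with 14 to 40 counts per library, and the causes of the differences between settings were not tested.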
